A study of Mus musculus with 6 samples.

Results

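Adult haemoglobin is made from 4 globin genes in the mouse annotation used here, Hba-a1 and Hba-a2 for the alpha chain and Hbb-bs and Hbb-bt for the beta chain. These genes were chosen by name, together with Ahsp, the chaperone that holds free alpha chains. Of the 5 names, 4 matched rows among the 49315 gene identifiers of the count table. No identifier could be paired with the symbol Ahsp in the name tables used, and Ahsp was not analysed here. RNA was sequenced from mouse bone marrow after poly(A) selection, 3 libraries per group. The WT group carried a floxed, undeleted miR-181a2b2 locus (miR-181a2b2flox/flox, replicates 1, 3 and 4) and the KO group lacked it (miR-181a2b2-/-, replicates 2, 3 and 4). All 6 libraries came from animals on the HFSC diet with hindlimb ischemia, a loss of blood flow to a leg, so both groups share diet and injury. The labels give no Cre line, sex, age or strain background, name marrow as the source but white adipose tissue in the extraction text, and do not say that libraries came from separate animals. The p-values therefore measure only the spread between these libraries. Whether this spread is technical or lies between animals was not tested.

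Haemoglobin carries oxygen in red cells as a tetramer of paired alpha and beta chains, each holding a haem group with iron. Red cell precursors in the marrow switch the globin genes on strongly under factors such as GATA1 and KLF1, and their messages persist in reticulocytes after the nucleus is lost. Alpha and beta chains are needed in balance, because free chains precipitate and damage the cell. The genes lie in a cluster for each chain, where enhancers shared by the cluster act on embryonic and adult members in turn. Hbb-bs and Hbb-bt are the beta pair of the reference haplotype, and other mouse strains carry a different pair.

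The coding sequences of each pair of copies are close to identical, which bears on every count below. The alpha genes lie on chromosome 11 (GRCm38, plus strand), Hba-a1 (ENSMUSG00000069919) at 32283511 to 32284465 and Hba-a2 (ENSMUSG00000069917) at 32296489 to 32297298. The beta genes lie on chromosome 7 (minus strand), Hbb-bt (ENSMUSG00000073940) at 103812524 to 103813996 and Hbb-bs (ENSMUSG00000052305) at 103826534 to 103828096. The coding sequence of Hba-a1 and Hba-a2 is 429 bases long with its stop codon, and 1 base differs (C381T, Hba-a1 first, counted from the first base of the start codon). That of Hbb-bs and Hbb-bt is 444 bases long, and again 1 base differs (C417T, Hbb-bs first). The 29 coding bases around each differing base, which is in capitals, show how little separates the coding sequences of the copies (GRCm38, written along the coding strand).
Hba-a1 (chr11:32284329-32284357, plus strand): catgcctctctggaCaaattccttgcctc
Hba-a2 (chr11:32297146-32297174, plus strand): catgcctctctggaTaaattccttgcctc
Hbb-bs (chr7:103826678-103826706, minus strand): gtggctggagtggcCgctgccctggctca
Hbb-bt (chr7:103812669-103812697, minus strand): gtggctggagtggcTgctgccctggctca

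Among all coding windows of 100 bases, 14.8% (49 of 330) of those in Hba-a1 or Hba-a2 and 8.12% (28 of 345) of those in Hbb-bs or Hbb-bt were found in no annotated transcript of another gene. Reads inside the coding part therefore rarely tell the copies apart, and the sources used here do not say how the authors' counting treated a read that matches both. The untranslated ends differ more in annotation, and their full sequences were not compared. The annotated Hba-a1 transcript (699 bases) begins 161 bases ahead of the place where that of Hba-a2 (554 bases) begins, and the same 161 bases stand in front of Hba-a2. Single-copy values below are uncertain for this reason, and the sum per chain is given beside them because it does not depend on how reads were split within a pair, although reads matching both copies may have been left out of both.

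The promoters were read because the 4 genes varied together over the libraries. RefSeq (GRCm38.p6) gave a 300-base window for each of the 4, from 250 bases before the start to 50 after it. The Hba-a1 and Hba-a2 windows were identical over all 297 bases that align, shifted by 3 bases, whereas those of Hbb-bs and Hbb-bt matched at 216 of 306 aligned positions (70.6%). The motif CCAAT, bound by NF-Y and related factors, and ATATAA, a form of the TATA box, are shown in capitals in 30-base stretches, since both were found in all 4 on the gene's own strand.
Hba-a1, CCAAT (chr11:32283572-32283601, plus strand): agcacaaaccagCCAATgagaactgctcca
Hba-a2, CCAAT (chr11:32296389-32296418, plus strand): agcacaaaccagCCAATgagaactgctcca
Hbb-bs, CCAAT (chr7:103827987-103828016, minus strand): ccctggtaagggCCAATctgctcacacagg
Hbb-bt, CCAAT (chr7:103813981-103814010, minus strand): ccctggcattggCCAATctgctcagagagg
Hba-a1, ATATAA (chr11:32283632-32283661, plus strand): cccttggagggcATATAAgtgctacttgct
Hba-a2, ATATAA (chr11:32296449-32296478, plus strand): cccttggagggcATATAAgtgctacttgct
Hbb-bs, ATATAA (chr7:103827941-103827970, minus strand): ccagggcagagcATATAAggtgaggtagga
Hbb-bt, ATATAA (chr7:103813935-103813964, minus strand): ccagcattgggtATATAAagctgagcaggg

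CCAAT began 88, 91, 76 and 75 bases before the start of Hba-a1, Hba-a2, Hbb-bs and Hbb-bt, and ATATAA began 28, 31, 30 and 29 bases before it. Counting either strand, 37.4% of the 32851 promoter windows in the RefSeq table held CCAAT and 9.82% held ATATAA. The motif CACCC, the core of the KLF1 site, was present in all 4 globin windows and in 57.5% of all windows. GATAA, which holds the core letters of the GATA motif, was also present in all 4 and in 25.4% of all. These are matches of letters, and no binding was measured.

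Library totals lay between 33861440 and 40359093 counts, and the smallest count of any adult globin in a library was 28373 (Hba-a2, KO replicate 3), so counting error was small beside the spread between libraries. Bone marrow markers were abundant in all 6 libraries. The summed level of 13 neutrophil genes lay between 46643 and 58421 CPM (counts relative to a common library total, scaled by edgeR's TMM factors) in WT and between 69172 and 84648 CPM in KO, without overlap. That of 24 red cell genes other than globins lay between 8619 and 12403 CPM in WT and between 6895 and 8302 CPM in KO, also without overlap. Of single genes tested, 14.4% had every KO library above every WT library and 14.7% had every KO library below. Summed adipocyte markers (8 genes) reached 83.7 CPM and summed skeletal muscle markers (8 genes) 21.5 CPM at most, and no marker gene was at 0 in every library. Xist differed between libraries of the same group. Without TMM factors it lay at 0.147, 3.50 and 5.05 CPM in WT replicates 1, 3 and 4. In KO replicates 2, 3 and 4 it lay at 6.64, 0.220 and 0.0758 CPM. It was thus above 1 CPM in WT replicates 3 and 4 and in KO replicate 2. The source of this difference was not tested. In bulk marrow, fewer red cell precursors and less globin RNA per precursor cannot be told apart.

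The adult globins were among the most abundant transcripts of every library. Together they took 2.78%, 1.06% and 2.01% of counts in WT replicates 1, 3 and 4, and 2.09%, 1.04% and 1.30% in KO replicates 2, 3 and 4. The highest share was thus in WT replicate 1 and the lowest, 2.69-fold below it, in KO replicate 3, with WT replicate 3 next to it. The mean was 1.95% ± 0.864 in WT and 1.47% ± 0.547 in KO (SD, n = 3 each). The groups overlapped, and the difference of -0.479 percentage points gave p = 0.6 in a two-sided exact permutation test, which cannot go below 0.1 with 3 against 3 libraries. The difference was -0.063 points without WT replicate 1, -0.260 without KO replicate 3, -0.786 without KO replicate 2 and -0.926 without WT replicate 3.

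Hbb-bs, the more abundant beta gene, was the gene with the most counts in WT replicate 1 (483633 counts, 1.42% of the library). It ranked 8 in WT replicate 3 (207929 counts) and 2 in WT replicate 4 (406132 counts). In KO replicates 2, 3 and 4 it ranked 4, 8 and 6. Hba-a2, the adult globin with the fewest counts, ranked between 21 (WT replicate 1) and 111 (KO replicate 3). On counts scaled to the library total and to annotated exon length, the order within each of the 6 libraries was Hbb-bs, then Hba-a1, then Hbb-bt, then Hba-a2. On this scale (CPM per kilobase of exon, without TMM factors) Hbb-bs ranged from 6763 to 18521 over the libraries, Hba-a1 from 3822 to 10146, Hbb-bt from 1728 to 4292 and Hba-a2 from 1169 to 3525. The ranges of neighbours in that order overlapped, so the order held within libraries and not between them.

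The deletion of miR-181a2b2 was compared with the floxed state gene by gene, first for the alpha chain. Hba-a1 lay at 8098, 3212 and 5967 CPM in WT replicates 1, 3 and 4. In KO replicates 2, 3 and 4 it lay at 6237, 3156 and 3617 CPM. WT replicate 1 was highest, but WT replicate 3 was almost as low as the lowest KO library, and KO replicate 2 exceeded 2 of the WT libraries. Its log2 fold change (KO minus WT) was -0.41 ± 0.40 (SE), with a 95% interval from -1.38 to 0.56 (edgeR quasi-likelihood test, adjusted p = 0.582). On a linear scale the interval ran from 0.384 to 1.48 times the WT level.

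Hba-a2, the less abundant alpha copy, lay at 2311, 834 and 1608 CPM in WT. Its KO libraries were at 1763, 793 and 1126 CPM. The libraries stood in the same order as for Hba-a1, and the groups overlapped. The log2 fold change was -0.37 ± 0.46 (SE, 95% interval -1.52 to 0.78, edgeR adjusted p = 0.671). The sum of both alpha genes was 10410, 4047 and 7575 CPM in WT and 8000, 3949 and 4742 CPM in KO. For the sum the log2 fold change was -0.40 ± 0.41 (SE, 95% interval -1.40 to 0.60, edgeR adjusted p = 0.598), so the outcome for the alpha chain was alike for the copies and for their sum.

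Hbb-bs lay at 13982, 5105 and 9688 CPM in WT replicates 1, 3 and 4. In KO replicates 2, 3 and 4 it lay at 10760, 5344 and 7248 CPM. The lowest library of all was a WT library, replicate 3. The log2 fold change was -0.30 ± 0.42 (SE, 95% interval -1.31 to 0.71, edgeR adjusted p = 0.702).

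Hbb-bt, the minor beta copy, lay at 2966, 1243 and 2124 CPM in WT and at 2219, 1236 and 1699 CPM in KO. Again KO replicate 2 stood above WT replicates 3 and 4. The log2 fold change was -0.30 ± 0.35 (SE, 95% interval -1.13 to 0.54, edgeR adjusted p = 0.646). Summed, the beta genes had 16948, 6348 and 11812 CPM in WT and 12979, 6579 and 8948 CPM in KO, with a log2 fold change of -0.30 ± 0.40 (SE, 95% interval -1.27 to 0.66, edgeR adjusted p = 0.690).

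**Figure D1:**
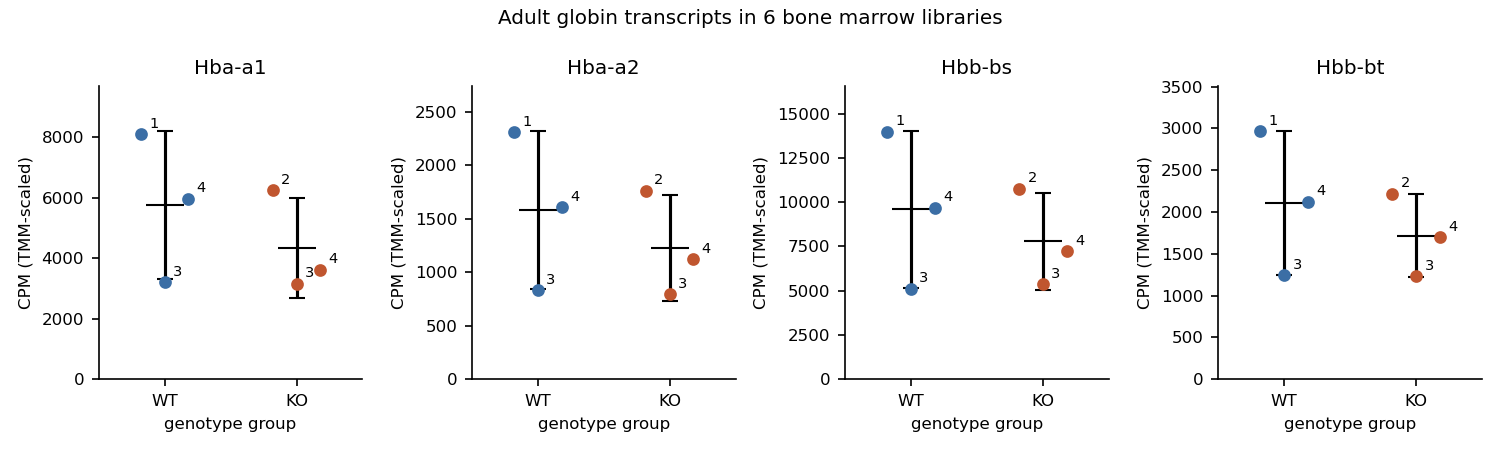
CPM (TMM-scaled, linear axis from 0) of each adult globin gene in the 3 WT and 3 KO libraries; points are libraries with their replicate numbers, the horizontal bar is the group mean and the error bar 1 SD. The groups overlap for all 4 genes, and WT replicate 1 is highest and WT replicate 3 and KO replicate 3 lowest in each panel.

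None of the 4 adult globins passed the threshold of an adjusted p of 0.05, and none had an unadjusted p under 0.05, in edgeR, DESeq2 or limma. For comparison, edgeR called 2.46% of the 16956 genes tested (1.52% lower and 0.938% higher in KO), DESeq2 9.68% (4.62% lower and 5.05% higher) and limma 6.23% (3.31% lower and 2.92% higher). Of edgeR's calls 38.1% were higher in KO, against 17.8% with scaling by library totals alone. The 4 fold changes were all negative, but the genes come from the same libraries and near-identical copies, and are not 4 independent observations. The median over all genes tested was -0.01, and 51.1% of them were negative. An equal level in both groups was not shown either, since the interval of Hba-a2 reached from 0.350 to 1.71 times the WT level and that of Hbb-bt, the narrowest, from 0.457 to 1.45 times.

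The spread within groups set these intervals. The highest WT library exceeded the lowest by 2.52-fold for Hba-a1, 2.77-fold for Hba-a2, 2.74-fold for Hbb-bs and 2.38-fold for Hbb-bt. Among KO libraries the same ratios were 1.98, 2.22, 2.01 and 1.80. Leaving out each library in turn moved the log2 fold change of Hba-a1 between -0.76 (without KO replicate 2) and -0.08 (without WT replicate 1). Hba-a2 moved between -0.72 and 0.01, Hbb-bs between -0.60 and 0.07 and Hbb-bt between -0.57 and 0.03. Each positive value arose without WT replicate 1. The direction of 3 of the 4 genes thus rested on that library, and the lowest adjusted p in any of these fits was 0.261 (edgeR).

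**Figure D2:**
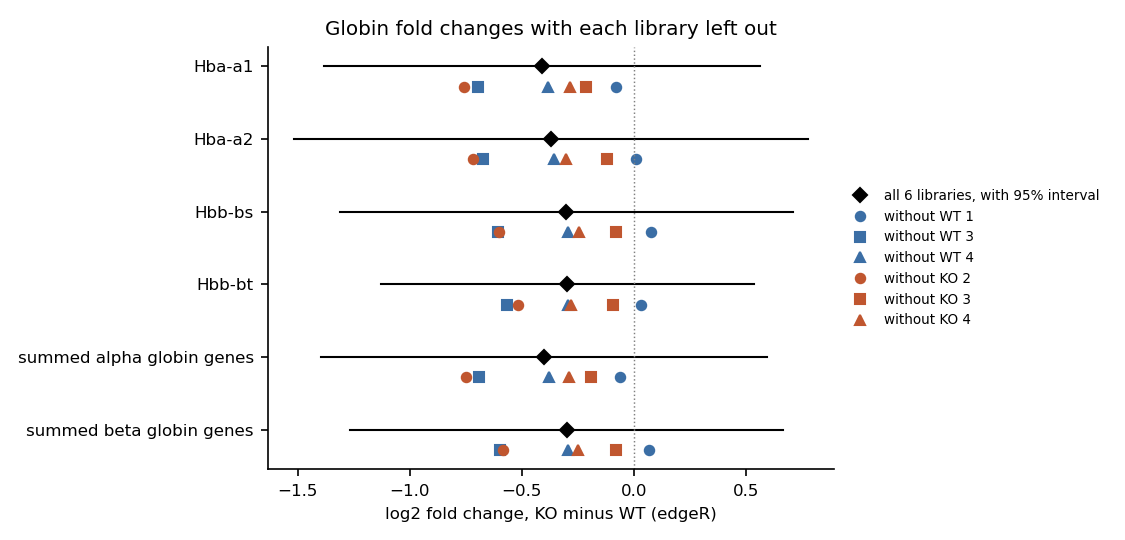
Log2 fold change (KO minus WT, edgeR) of each adult globin and of the sum per chain; diamonds with lines are all 6 libraries with the 95% interval, and small symbols are the values with a single library left out. Every interval spans 0, and omitting WT replicate 1 brings all values to between -0.08 and 0.07.

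Ratios within a library do not depend on its scaling. How reads matching both copies were counted is not known, and 14.8% of alpha but 8.12% of beta coding windows of 100 bases were unique. The alpha to beta ratio may therefore depend on the counting of reads as well as on the balance of the chains. The ratio of alpha to beta counts was 0.614, 0.637 and 0.641 in WT replicates 1, 3 and 4. It was 0.616, 0.600 and 0.530 in KO replicates 2, 3 and 4. The groups overlapped only through KO replicate 2, which lay just above WT replicate 1, and KO replicate 4 was the lowest. The mean was 0.631 ± 0.0147 in WT and 0.582 ± 0.0459 in KO (SD, n = 3 each), 0.921-fold by the difference of mean log2 ratios (-0.12; two-sided exact permutation p = 0.2, smallest possible 0.1). Leaving out each library in turn kept the log2 difference negative, between -0.16 and -0.05. The value nearest 0 came without KO replicate 4. The levels of the alpha and beta genes varied more than 2-fold among the libraries, whereas their ratio varied between 0.530 and 0.641.

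The ratio of Hba-a1 to Hba-a2 counts was 3.50, 3.85 and 3.71 in WT and 3.54, 3.98 and 3.21 in KO. KO libraries were both the highest and the lowest, and the exact permutation p was 0.7. The ratio of Hbb-bt to Hbb-bs counts was 0.212, 0.244 and 0.219 in WT and 0.206, 0.231 and 0.234 in KO (exact permutation p = 1). With coding sequences this alike, both ratios describe the authors' assignment of reads as well as the copies.

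**Figure D3:**
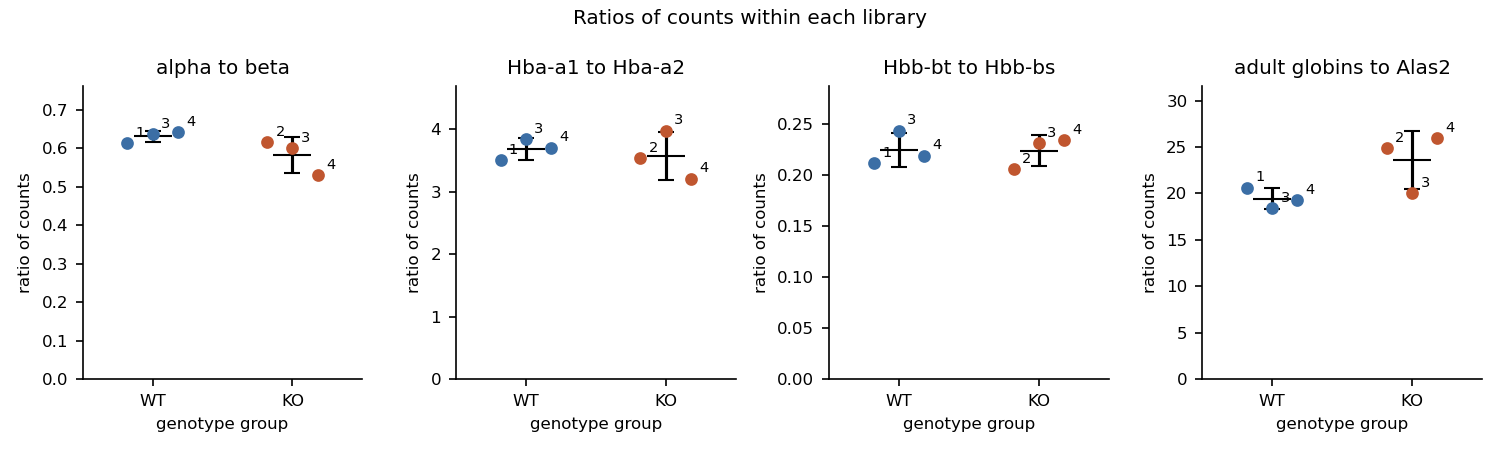
Ratios of raw counts within each library (axes from 0); points are libraries with replicate numbers, the bar is the group mean and the error bar 1 SD. Alpha to beta lies between 0.530 and 0.641, and the groups overlap in all 4 panels.

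The other globins of the clusters were scarce in adult marrow. Of the 13 other globin names, 11 had a row and 3 had enough counts to be tested. Hba-x, the embryonic alpha-like gene, had 12 counts in all in the WT group and 15 in the KO group. The embryonic beta-like genes had 14 and 13 counts for Hbb-y and 9 and 7 for Hbb-bh1, and these 3 genes were too low to be tested. Among the 3 tested, 0 passed the threshold in edgeR, with 2 lower and 1 higher at an unadjusted p under 0.05 (12.2% and 11.7% of all genes tested). Hbq1b, a theta-like gene between the alpha copies, lay at 21.4, 16.1 and 16.9 CPM in WT and at 13.8, 11.3 and 10.4 CPM in KO, with no overlap. The fitted difference was -0.61 ± 0.15 on the log2 scale (SE, edgeR adjusted p = 0.0629), and DESeq2 and limma called it lower. Across all genes tested, 14.7% had every KO library below every WT library. Hbq1a, its partner beyond Hba-a2, had -0.86 (edgeR adjusted p = 0.203; -1.37 without KO replicate 2), and Cygb, cytoglobin, which lies outside the clusters, had 0.71 (edgeR adjusted p = 0.197).

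Upstream of the alpha genes lie 5 neighbouring genes, of which Nprl3 holds the known alpha globin enhancers in its introns. None of the 5 passed the threshold in edgeR, with 2 lower and 0 higher at an unadjusted p under 0.05 (12.2% and 11.7% of all genes). Nprl3 lay at 27.8, 25.0 and 26.5 CPM in WT and at 22.4, 18.3 and 17.9 CPM in KO without overlap (log2 fold change -0.44 ± 0.11, SE, edgeR adjusted p = 0.0707), and DESeq2 and limma called it. Mpg, a DNA repair glycosylase, had -0.12, Rhbdf1, a rhomboid-like protein, -0.14, Snrnp25, a spliceosome subunit, 0.15 and Il9r, a cytokine receptor, -0.80 (edgeR adjusted p = 0.169 for Il9r). Without WT replicate 1 the value of Il9r was -0.45.

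Regulators of globin genes were compared next. Of 16 tested, 1 fell in KO marrow and 0 rose, beside 1.52% and 0.938% of all genes. DESeq2 gave 4 lower and 1 higher (4.62% and 5.05% of all genes) and limma 2 lower and 1 higher (3.31% and 2.92%). The gene that fell was Sox6, a factor that helps silence embryonic globin genes. It lay at 139, 107 and 127 CPM in WT and at 68.2, 85.3 and 63.2 CPM in KO (log2 fold change -0.79 ± 0.13, SE, edgeR adjusted p = 0.0278). Omitting WT replicate 1, WT replicate 4 or KO replicate 4 took the call away, with an edgeR adjusted p of up to 0.111. The list had a median of -0.21.

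Haem synthesis and iron supply followed. Of 18 genes tested, 1 fell and 0 rose in edgeR, where 1.52% of all genes fell. DESeq2 gave 5 lower (4.62% of all genes) and limma 4 lower (3.31% of all genes). All 18 had negative log2 fold changes, beside 51.1% of all genes, with a median of -0.32. Alas2, the first and rate-limiting enzyme of haem synthesis in red cells, lay at 1326, 565 and 1006 CPM in WT and at 843, 525 and 528 CPM in KO. WT replicate 3 lay among the KO libraries, and the log2 fold change was -0.61 ± 0.34 (SE, edgeR adjusted p = 0.327). The gene that fell was Steap3, an iron reductase of the endosome (-0.43 ± 0.09, SE, edgeR adjusted p = 0.0474). It lost the call in each fit that left out a library, with adjusted p between 0.0535 and 0.184.

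Genes that balance globin chains or protect haemoglobin gave no call in edgeR. Of 15 tested, 0 passed the threshold in edgeR or limma (4 lower and 1 higher at an unadjusted p under 0.05 in edgeR, beside 12.2% and 11.7% of all genes). DESeq2 gave 2 lower and 1 higher, beside 4.62% and 5.05% of all genes. Eif2ak1, the haem-regulated kinase that stops globin translation when haem is short, had a log2 fold change of -0.33 (edgeR adjusted p = 0.0903). Ube2o, a ubiquitin ligase that clears unassembled alpha globin, had -0.73 (adjusted p = 0.151). Ulk1, an autophagy kinase that acts on free alpha globin, had -0.25 (adjusted p = 0.144), and Hspa8, a general chaperone, had 0.41 (adjusted p = 0.119, all by edgeR). The median of the list was -0.16.

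Red cell genes other than globins gave the largest number of calls among these lists, which were chosen with earlier results of these data known. Of 24 tested, 5 fell (20.8%, beside 1.52% of all genes) and 0 rose in edgeR. DESeq2 gave 12 lower (4.62% of all genes) and limma 7 (3.31% of all genes). All 24 log2 fold changes were negative, beside 51.1% of all genes, with a median of -0.41. Among them were Sptb, a spectrin chain of the red cell membrane skeleton, Ank1, the ankyrin that anchors it, and Ermap and Kel, surface proteins of red cells. Sptb lay at 735, 586 and 658 CPM in WT and at 358, 422 and 320 CPM in KO, 1.80-fold lower with no overlap (log2 fold change -0.85 ± 0.13, SE, edgeR adjusted p = 0.0220). Ank1 was 1.74-fold, Ermap 1.61-fold and Kel 1.54-fold lower. Omitting WT replicate 1, WT replicate 4 or KO replicate 4 left 0 calls, and omitting WT replicate 3 gave 9. Whether the log2 fold changes of these genes differed from those of the adult globins was not tested in a model. The adult globins had 2.21, 1.21 and 1.77 counts per count of the 24 genes in WT replicates 1, 3 and 4, and 2.53, 1.43 and 1.99 in KO replicates 2, 3 and 4 (exact permutation p = 0.6). Per Alas2 count there were 20.6, 18.4 and 19.3 globin counts in WT and 24.9, 20.1 and 25.9 in KO. Only KO replicate 3 overlapped the WT range there (1.21-fold, exact permutation p = 0.2). Both of these ratios were added after the data had been seen.

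**Figure D4:**
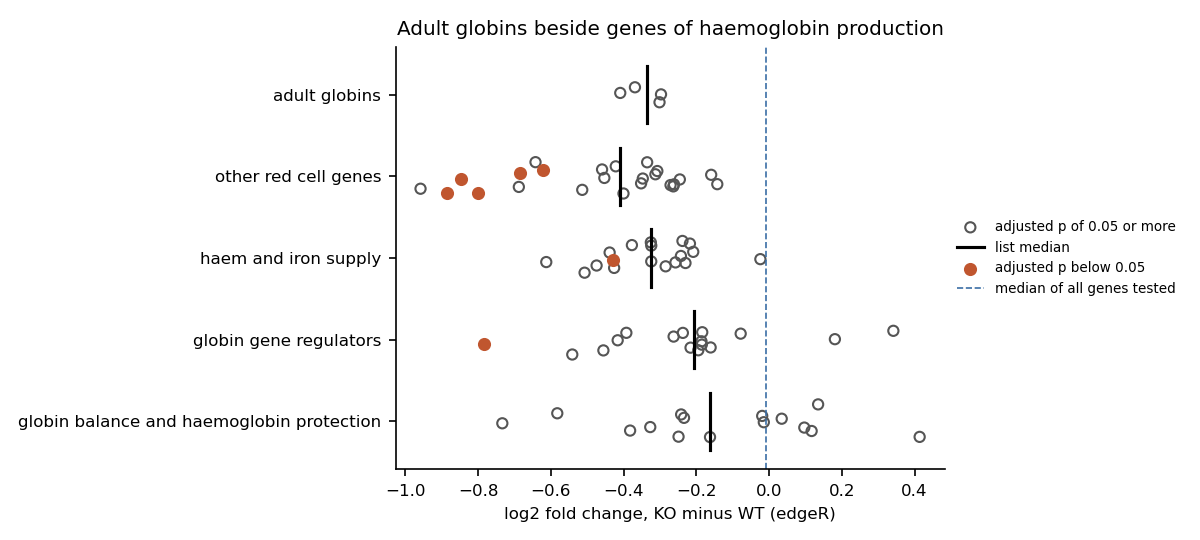
Log2 fold change (KO minus WT, edgeR) of each gene tested, by list; filled points have an adjusted p below 0.05, short bars are list medians and the dashed line is the median of all genes tested. The 4 adult globins lie between -0.41 and -0.30 with open symbols, and 5 of 24 other red cell genes are filled.

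Transcript length and other cell types differed alongside these lists. The adult globins have 667 to 812 bases of annotated exon, against 12147 in Sptb, 13527 in Ank1, 5297 in Ermap and 2773 in Kel. Those 4 red cell genes were among the ones called, and the whole list of 24 other red cell genes had a median of 2999. Genes called lower in KO had a median exon length of 5974.5 bases, those called higher 2320 and all tested 3781. Of the 13 neutrophil markers 3 rose, beside 0.938% of all genes, and their summed level was higher in every KO library than in any WT library. The summed levels of 8 T and NK cell markers (86.3 to 108 CPM in WT, 111 to 130 CPM in KO) and of 8 adipocyte markers (55.5 to 63.4 CPM in WT, 67.1 to 83.7 CPM in KO) also did not overlap. In edgeR 0 genes of either list were called. Of single genes tested, 14.4% had every KO library above every WT library. The sums of B lineage markers overlapped (317 to 513 CPM in WT, 124 to 414 CPM in KO), as did those of monocyte and macrophage, megakaryocyte and skeletal muscle markers. The part of length or of these cell types in the globin and red cell values was not tested.

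The 4 adult globins varied together over the libraries, with pairwise Pearson correlations of log2 CPM between 0.971 and 0.997 (n = 6 libraries, near-identical copies included). Among 9408 genes above a mean log2 CPM of 3, those most like the summed globins included Abhd16a (r = 0.998), Ube2l6 (0.997), Necap2 (0.996), Bcl2l1 (0.996), Slc25a39 (0.994), Snx15 (0.991), Cd5l (0.986), Hscb (0.986) and Ube2r2 (0.986). These correlations rest on 6 libraries that differed in summed cell markers and in depth. All genes of a library share its cell makeup and depth. Leaving out a library kept between 4 and 8 of the 10 highest. Abhd16a, a lipid hydrolase, followed the order with a small range, from 58.8 to 71.4 CPM. Ube2l6, an enzyme of the ISG15 pathway, ranged from 176 to 385 CPM, and Bcl2l1, which encodes the survival protein BCL-XL, from 95.8 to 152 CPM. Slc25a39, a mitochondrial carrier that imports glutathione, ranged from 107 to 193 CPM. Of the listed genes, Klf1, the activator of adult beta globin, had r = 0.965 and Alas2 0.936, whereas Sptb had 0.356 and Sox6 0.354. Bach1, a haem-sensitive repressor of globin genes, had r = -0.906. Klf1 was the highest of the listed regulators and Bach1 the lowest of the globin balance list. Among other regulators, Gata1 had 0.917, Bcl11a 0.589, Nfe2 -0.120 and Mafg -0.440. Among the 9408 genes Klf1 ranked 31, Alas2 72 and Bach1 9285. Regulators of globin genes ranged from -0.440 to 0.965, and genes of globin balance and haemoglobin protection from -0.906 to 0.966.

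**Figure D5:**
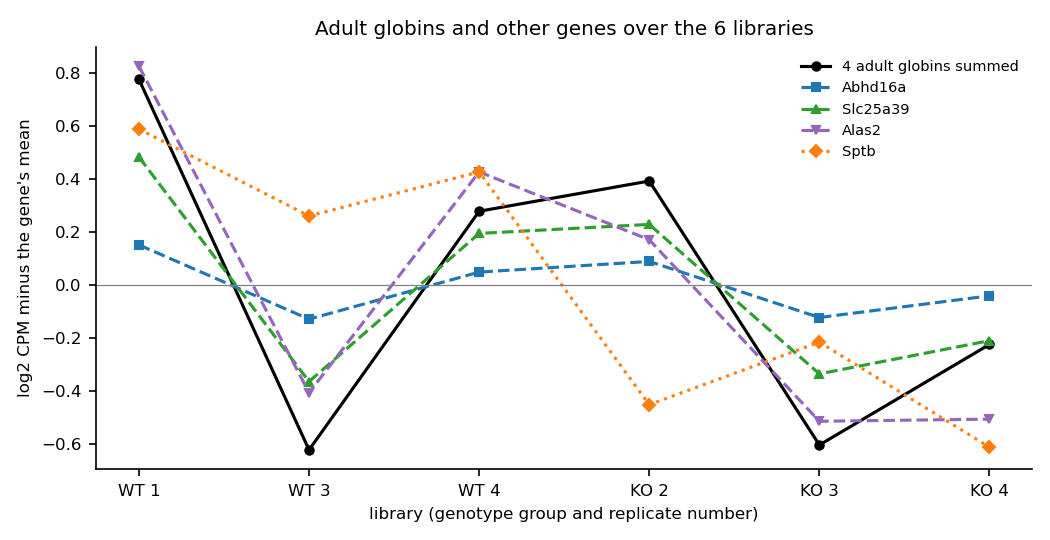
Log2 CPM minus the gene's mean over the 6 libraries, for the summed adult globins and 4 other genes; lines join the values of a gene across libraries and have no time order. The summed globins, Abhd16a, Slc25a39 and Alas2 are low in WT replicate 3, where Sptb is above its mean.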

How the data were processed

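Gene-level raw counts of 6 mouse bone marrow libraries were used as deposited. Per the submitters' processing notes, the authors' tools were featureCounts (Subread 1.5.2), STAR 2.5.2b and Trimmomatic 0.36, on GRCm38. The sources used here do not give the annotation release, the strand setting or how reads with several matches were handled. Identifiers were matched to GENCODE M21 symbols (48970 of 49315, and the unmatched ones held 0.0461% of counts). The main test was edgeR 4.0.16 in R 4.3.3 (TMM, filterByExpr by group, robust quasi-likelihood test, two-sided, Benjamini-Hochberg over all genes tested, threshold 0.05). Sums per chain were fitted in the same table with the copies merged. Shares and ratios were compared by two-sided exact permutation of 3 against 3 libraries, on the log2 scale for ratios. CPM use the library total times its TMM factor as the denominator, and shares use the total alone. Alternatives included limma 3.58.1 (sample quality weights) and DESeq2 1.42.0. The procedure was tested on simulated counts.

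The members and gene lists were chosen with earlier results of these data known. The named genes are the members, up to 6 genes of each list past the threshold or otherwise up to 4 with the smallest p, the 10 genes most correlated with the summed globins, and the neighbours of the alpha cluster. Alas2, Klf1, Bach1, Gata1, Bcl11a, Nfe2, Mafg, Hba-x, Hbb-y and Hbb-bh1 were named beyond this rule after their values were seen. Some genes that the rule names are not reported here, but they are included in the counts. Promoter sequences are from RefSeq (GRCm38.p6) and coding sequences from GENCODE M21.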

Additional observations from a re-analysis of the deposited data

How the results depend on the processing

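Besides the reported fit, 9 other settings were run and each of the 6 libraries was left out in turn, and no adult globin or sum per chain passed the threshold in any of them. Over the 9 settings the log2 fold change stayed between -0.48 and -0.37 for Hba-a1, -0.44 and -0.29 for Hba-a2, -0.37 and -0.18 for Hbb-bs and -0.37 and -0.17 for Hbb-bt. Leaving out a library gave -0.76 to -0.08 for Hba-a1, -0.72 to 0.0073 for Hba-a2, -0.60 to 0.074 for Hbb-bs, -0.57 to 0.030 for Hbb-bt and -0.60 to 0.066 for the summed beta genes, the upper ends each without WT replicate 1. The log2 difference of the Hba-a1 to Hba-a2 ratio ranged from -0.13 to 0.026, that of Hbb-bt to Hbb-bs from -0.047 to 0.052 and that of the globins to other red cell genes (added after seeing the data) from -0.037 to 0.42. Mpg ranged from -0.26 to 0.0047, Rhbdf1 from -0.33 to 0.11, Il9r from -1.03 to -0.45 and Hbq1a from -1.37 to -0.63. Numbers of genes called lower ranged from 0 to 1 for other globins, 0 to 3 for regulators, 0 to 1 for haem and iron supply and 0 to 9 for other red cell genes when a library was left out. With no filter on low counts they were 1 other globin, 5 regulators, 5 haem and iron genes and 11 other red cell genes. DESeq2 gave 1, 4, 5 and 12 lower, with 2 more lower in globin balance and haemoglobin protection and 1 regulator and 1 globin balance gene higher. In limma 1 other globin, 2 regulators and 4 haem and iron genes were lower and 1 regulator was higher. Library totals alone gave 2 regulators and 2 haem and iron genes, a mean log2 CPM of at least 1 gave 2 haem and iron genes, and a term marking libraries with more than 1 CPM of Xist gave 0 haem and iron genes. Library totals also moved the share of calls that were higher in KO from 38.1% to 17.8%, and DESeq2 to 52.2%. The cause of these differences was not tested.

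Only numbers 3 and 4 occur in both groups. Deviations from the group means correlated at 0.319 between the libraries numbered 3 and at -0.338 between those numbered 4. Pairs with unlike numbers ran from -0.331 to 0.304. So few pairs cannot decide whether the numbers pair the libraries, and the main fit did not use the numbers. As a block, the replicate number gave WT replicate 1 and KO replicate 2 a term of their own each. The group difference then rested only on replicates 3 and 4 of both groups. In that fit Hba-a1 had a log2 fold change of -0.37, Hba-a2 -0.29, Hbb-bs -0.18, Hbb-bt -0.17, Il9r -0.27 and Rhbdf1 0.037. It called 2 regulators (Sox6 not among them, edgeR adjusted p = 0.0706), 0 haem and iron genes and 3 other red cell genes lower. The comparisons planned for Ahsp were not run, since it was not analysed here.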
